A study of Mus musculus with 12 samples.

Results

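The 10 genes described here, Ccn1, Ccn2, Ankrd1, Amotl1, Amotl2, Ajuba, Lats2, Yap1, Wwtr1 and Tead1, are members and targets of the YAP and TEAD pathway, taken by name from a count table of 55487 mouse genes. They and the gene lists below were chosen with earlier results of these data known. All 10 had reads in all 12 samples, with 597 to 25393 counts per gene and sample, and all 10 were among the 11314 protein-coding genes that were tested. RNA-seq was performed on primary bone marrow mesenchymal stromal cells (MSCs) of WT C57BL/6 mice, in 3 groups of 4 samples. Control MSCs were untreated (Negative in the labels), A1-treated MSCs received 50 µM of A1 for 6 h, and A1 + OVA-treated MSCs received 50 µM of A1 with 1 mg/ml of ovalbumin (OVA), the chicken egg white protein used as a model antigen, for 6 h. A1 is an Accum variant in which the bile acid cholic acid is linked to the nuclear localization signal of hnRNPA1. The labels give no incubation time for the untreated cultures, so whether they were handled for the same 6 h is not known. None of the 12 samples received OVA without A1, so the A1 + OVA group was compared with control MSCs and with A1-treated MSCs. The labels do not say whether the 4 samples of a group came from separate cultures or animals, so p-values measure only the spread between these samples, which may be technical. The labels describe the medium of all groups as supplemented with serum and antibiotics, and their text on the A1 + OVA medium also names insulin, without a dose, so that OVA and this insulin, if it was present, cannot be told apart.

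YAP and TAZ (the product of Wwtr1) are transcriptional coactivators that shuttle between the cytoplasm and the nucleus and bind DNA through the TEAD factors. The Hippo kinases, MST1 and MST2 acting on LATS1 and LATS2, phosphorylate YAP and TAZ and thereby hold them in the cytoplasm. Cell density, substrate stiffness and tension in the actin cytoskeleton act on this step, and in stromal cells cultured on plastic the coactivators are often nuclear. Ccn1 (CYR61), Ccn2 (CTGF) and Ankrd1 are the genes used most widely as readouts of YAP and TAZ activity. Several targets feed back on the pathway, among them Amotl2, Ajuba and Lats2. RNA levels do not show where YAP and TAZ are in the cell or how they are phosphorylated.

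The samples held between 13702348 and 16881995 counts, with the 4 A1-treated samples at 13702348 to 14347870 and the other 8 samples at 14359973 or more. The summed level of 10 MSC markers, in CPM (counts scaled to a common library size), was 8152 to 8558 in control, 5666 to 6053 in A1-treated and 5789 to 6247 in A1 + OVA-treated samples. Most of this difference lay in Cxcl12, with means of 3910 CPM in control, 1514 CPM with A1 and 1692 CPM with A1 + OVA. Col1a1, the other large part of the sum, had means of 3335, 3246 and 3297 CPM. Of the 10 markers, Thy1 (CD90) had 0 to 17 counts and was not tested, and Nt5e (CD73) had 7 to 14 counts. Of the 9 tested MSC markers, A1-treated MSCs had higher Cd44 and lower Ly6a, Pdgfra, Vcam1 and Cxcl12, while Col1a1, Pdgfrb, Eng and Nt5e did not pass. With A1 + OVA, Cd44 was higher, Pdgfrb was lower beside the same 4 genes, and Col1a1, Eng and Nt5e did not pass. Over all tested genes, 62.7% passed in either direction with A1 and 57.6% with A1 + OVA. Of 9 macrophage markers, 2 had over 3 counts in every sample, Cd14 (120 to 173 counts) and Cd68 (16 to 31 counts). Adgre1, Itgam, Aif1 and Tyrobp reached at most 2 counts, Ptprc 4, Lyz2 7 and Csf1r 14. Cd14 was higher with A1 (log2 fold change 0.57) and with A1 + OVA (0.29), and Cd68 did not differ from control at an adjusted p under 0.05. The summed CPM of the 9 macrophage markers was 9.41 to 10.5 in control, 11.98 to 14.7 in A1-treated and 10.7 to 13.1 in A1 + OVA-treated samples. Of the 6 endothelial markers, 0 had over 3 counts in every sample, and their summed CPM was at most 1.22. The part of these marker levels in the results below was not tested. In RNA from whole cultures, fewer cells that express a gene and less of its RNA per cell cannot be told apart.

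The promoters of the 10 genes were read first, because TEAD factors bind a known hexamer that can be set beside the expression of each gene. It reads GGAATG on one strand. On the opposite strand it reads CATTCC. RefSeq windows of the 250 bases before the annotated start site (GRCm38.p6) were at hand for 8 of the 10 genes, all but Ccn2 and Tead1. The hexamer was present on either strand in 6 of these 8 genes, against 12.6% of all 32851 windows and 12.6% of the 8954 tested genes with a window. The 8 genes were chosen as known pathway genes, so this share is a description of the list. Among genes with a window in the lists described below, the hexamer was in 3 of 14 Hippo genes and 6 of 10 partners. It was also in 3 of 11 further targets, 1 of 3 relatives of the CCN and Ankrd1 genes, and 4 of 10 actin genes and SRF targets. Ptpn14, which holds the hexamer, is in the lists of partners and of further targets and is counted in both. Genes that were not tested are included, such as the partner Vgll1, which holds the hexamer and had 0 counts. The stretches that hold the hexamer are printed 5′ to 3′ on the strand of each gene, with the hexamer in capitals, for Ccn1 and Ankrd1 as the whole 250 bases and for the others as 60 bases around it. They lie at chr3:145649986-145650235 (minus strand) for Ccn1, chr19:36119845-36120094 (minus strand) for Ankrd1, chr9:102717712-102717771 (plus strand) for Amotl2, chr14:54577804-54577863 (minus strand) for Ajuba, chr9:8004705-8004764 (minus strand) for Yap1 and chr3:57576014-57576073 (minus strand) for Wwtr1.
Ccn1: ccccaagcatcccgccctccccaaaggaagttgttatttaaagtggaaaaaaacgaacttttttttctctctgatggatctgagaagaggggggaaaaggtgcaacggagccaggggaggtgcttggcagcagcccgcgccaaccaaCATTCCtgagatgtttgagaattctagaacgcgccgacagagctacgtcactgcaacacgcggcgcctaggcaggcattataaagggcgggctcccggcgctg
Ankrd1: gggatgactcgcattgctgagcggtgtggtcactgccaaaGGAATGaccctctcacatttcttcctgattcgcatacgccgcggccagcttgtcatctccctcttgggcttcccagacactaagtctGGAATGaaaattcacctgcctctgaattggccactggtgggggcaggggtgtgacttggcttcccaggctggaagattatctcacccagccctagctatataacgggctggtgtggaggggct
Amotl2: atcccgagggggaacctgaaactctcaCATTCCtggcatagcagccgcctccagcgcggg
Ajuba: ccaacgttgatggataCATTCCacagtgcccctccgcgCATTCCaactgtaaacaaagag
Yap1: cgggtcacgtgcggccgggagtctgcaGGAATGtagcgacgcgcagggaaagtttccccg
Wwtr1: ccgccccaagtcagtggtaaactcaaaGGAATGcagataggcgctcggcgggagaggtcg
Ankrd1 and Ajuba each held 2 copies in the same orientation, in Ankrd1 with first bases 210 and 123 bases before the start site and in Ajuba 186 and 164 bases before it. Ccn1 held 1 copy on the other strand 103 bases before its start site, and Amotl2 held 1 on the other strand 65 bases before it. Yap1 and Wwtr1 each held 1 copy on the strand of the gene, at 141 and 136 bases before the start site. No copy was found in these windows of Amotl1 and Lats2. The CArG box, the site of serum response factor (SRF), was found in 0 of the 8 genes and in 4 of the 10 actin genes and SRF targets with a window. It was found in 1.43% of the 8954 tested genes with a window and in 1.47% of all windows. The windows of Ankrd1 and Amotl2 lie partly or wholly inside the longer gene models of the Ensembl annotation, so their start sites are those of RefSeq. A match to a hexamer is a description and no evidence of binding.

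**Figure D1:**
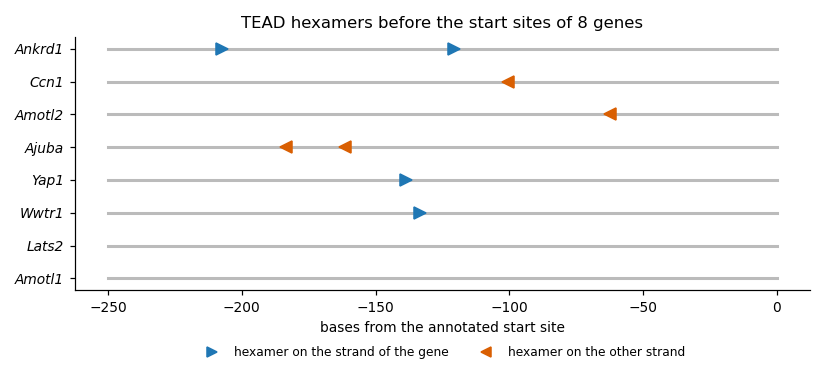
The 250 bases before the RefSeq start site of 8 of the 10 genes are drawn as grey lines, with position in bases from the start site on the x axis. Blue triangles stand for the hexamer on the strand of the gene and orange triangles for the hexamer on the other strand; Ankrd1 and Ajuba hold 2 copies, and Amotl1 and Lats2 hold none in these windows.

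The 3 readout genes Ccn2, Ankrd1 and Ccn1 rose 11.1-fold, 2.94-fold and 1.79-fold with A1 over control MSCs, while the coactivator gene Yap1 differed by less than the spread between samples. Of the 10 genes, 7 were higher, 0 were lower and 3 did not pass an adjusted p-value of 0.05 (edgeR's quasi-likelihood test), and 0 were lower at an unadjusted p under 0.05 or by DESeq2. Over all tested genes, 62.7% passed in either direction, 31.7% higher and 31.1% lower. A further cut at a log2 fold change of 0.5, called DEG below, left the same 3 readout genes, against 9.41% of tested genes that were higher DEGs. The median log2 fold change over the 10 genes was 0.21, beside -0.002 over all tested genes.

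Ccn2 (ENSMUSG00000019997, chr10:24595442-24598683, plus strand, GRCm38) encodes a secreted matricellular protein that acts on matrix synthesis, adhesion and fibrosis. Its level was 116, 134, 122 and 132 CPM in the 4 control samples (replicates 1 to 4), and 1190, 1409, 1563 and 1423 CPM in the A1-treated samples. In the A1 + OVA-treated samples it was 1529, 1550, 1676 and 1552 CPM. Each treated sample thus stood above each control sample, and the lowest A1 + OVA-treated sample lay below the highest A1-treated sample. Against 126 ± 8.60 CPM in control MSCs, the means were 1396 ± 154 CPM with A1 and 1577 ± 67.2 CPM with A1 + OVA (SD, n = 4 each). The log2 fold change was 3.47 with A1 (standard error 0.07, edgeR adjusted p = 5.21e-20) and 3.64 with A1 + OVA (standard error 0.07, edgeR adjusted p = 3.54e-20). Among the 11314 tested genes these ranked at 15 and 8 from the largest increase. Leaving out any 1 sample kept the A1 value between 3.40 and 3.53. The gene overlaps Gm15270 on the opposite strand, whose highest count was 147, and the authors' counting was strand-specific.

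Ankrd1 (ENSMUSG00000024803, chr19:36111961-36120099, minus strand) encodes an ankyrin repeat protein of the nucleus and of the muscle sarcomere that is induced by mechanical load. Control samples held 60.1, 65.8, 67.3 and 60.7 CPM. A1-treated samples held 164, 192, 201 and 190 CPM, and A1 + OVA-treated samples 198, 190, 222 and 203 CPM. All treated samples lay above all control samples, and the treated groups overlapped each other. The means rose from 63.5 ± 3.599 to 187 ± 16.1 CPM with A1 and to 203 ± 13.6 CPM with A1 + OVA (SD, n = 4 each). The log2 fold changes were 1.56 (standard error 0.06, edgeR adjusted p = 2.98e-15) and 1.68 (standard error 0.06, edgeR adjusted p = 8.91e-16).

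Ccn1 (ENSMUSG00000028195, chr3:145646976-145649981, minus strand) encodes a second matricellular protein of the same family, which binds integrins and acts on adhesion and angiogenesis. It was at 246, 244, 268 and 266 CPM in the control samples. The A1-treated samples had 415, 480, 466 and 472 CPM and the A1 + OVA-treated samples 485, 482, 541 and 514 CPM. The 3 groups did not overlap, with control lowest and A1 + OVA highest, although the gap between the treated groups was small beside that to control. The means were 256 ± 12.9, 458 ± 29.4 and 505 ± 27.8 CPM (SD, n = 4 each). On the log2 scale the change was 0.84 with A1 (standard error 0.05, edgeR adjusted p = 3.43e-12) and 0.98 with A1 + OVA (standard error 0.05, edgeR adjusted p = 2.98e-13).

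**Figure D2:**
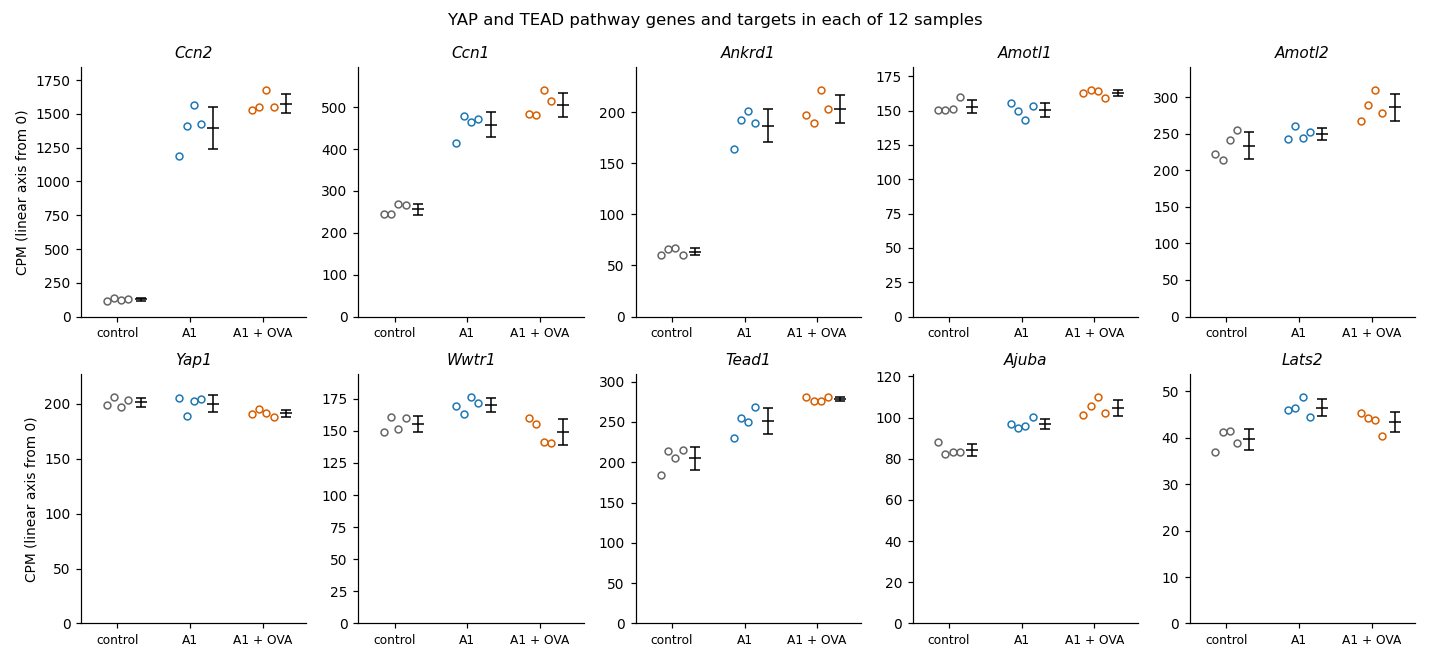
Each panel shows 1 gene, with its level in CPM on a linear axis from 0 and the 3 groups on the x axis. Circles are the 4 samples of a group and the bar beside them is the mean ± SD. Ccn2, Ccn1 and Ankrd1 separate treated from control samples by wide gaps, while the panels of Amotl1, Yap1 and Wwtr1 lie nearly level.

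Measured per kilobase of exon, which allows a rough comparison of genes, the order of the 10 genes differed between the groups. The length was that of all annotated exons of a gene. It can exceed that of the transcripts present, so close ranks within a group depend on the annotation. In control MSCs Ccn1 led with 127 ± 6.39 CPM per kb, above Ccn2 at 44.1 ± 3.01 and Amotl2 at 37.1 ± 2.94 (SD, n = 4 each). Wwtr1 followed at 32.5 ± 1.26 CPM per kb. Ajuba, Ankrd1 and Yap1 came next, between 21.8 and 23.1 CPM per kb, with neighbours whose sample ranges overlapped. Amotl1 at 15.2 and Tead1 at 15.1 CPM per kb also overlapped, and Lats2 was lowest at 5.69 ± 0.311 CPM per kb. With A1, Ccn2 moved to the top at 488 ± 53.9 CPM per kb, above Ccn1 at 227 ± 14.5 and Ankrd1 at 64.7 ± 5.57. Amotl2, Wwtr1, Ajuba, Yap1, Tead1, Amotl1 and Lats2 followed in that order, with Tead1 now above Amotl1, and no neighbours overlapped. With A1 + OVA the order was the same as with A1, from Ccn2 at 551 ± 23.5 to Lats2 at 6.23 ± 0.302 CPM per kb, and the ranges of Wwtr1 and Ajuba and those of Yap1 and Tead1 overlapped.

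In the 4 genes of pathway regulators, Ajuba, Lats2, Amotl1 and Amotl2, the log2 fold changes ran from -0.02 to 0.31, and none reached 0.5. Ajuba (ENSMUSG00000022178, chr14:54567472-54577558, minus strand) encodes a LIM protein of cell junctions that binds and restrains the LATS kinases. It was at 88.4, 82.3, 83.2 and 83.4 CPM in control, at 96.8, 94.8, 95.9 and 100.4 CPM in A1-treated and at 101, 105, 110 and 102.4 CPM in A1 + OVA-treated samples. The 3 groups did not overlap. The log2 fold change was 0.20 with A1 (standard error 0.04, edgeR adjusted p = 1.80e-04) and 0.31 with A1 + OVA (standard error 0.04, edgeR adjusted p = 7.05e-07).

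Lats2 (ENSMUSG00000021959, chr14:57689662-57758388, minus strand), the kinase that phosphorylates YAP and TAZ, was at 36.9, 41.3, 41.5 and 38.8 CPM in control samples. It was at 46.1, 46.5, 48.8 and 44.4 CPM with A1, above all control samples, and at 45.3, 44.3, 43.8 and 40.4 CPM with A1 + OVA, where 1 sample fell within the control range. In log2 terms the difference was 0.23 with A1 (standard error 0.05, edgeR adjusted p = 8.79e-04). With A1 + OVA it was 0.13 (standard error 0.05, edgeR adjusted p = 0.0401), a call that was lost in 14 of 20 alternative settings. Over all 20 settings the adjusted p ran from 0.0154 to 0.124.

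Amotl2 (ENSMUSG00000032531, chr9:102716672-102733418, plus strand) and Amotl1 (ENSMUSG00000013076, chr9:14541966-14645056, minus strand) encode angiomotin-like scaffolds that bind YAP at junctions and on actin and keep it from the nucleus. Amotl2 was at 222, 214, 241 and 255 CPM in control, at 242, 260, 244 and 253 CPM in A1-treated and at 267, 289, 310 and 278 CPM in A1 + OVA-treated samples. The control and A1 ranges overlapped, and all A1 + OVA-treated samples lay above both. The log2 fold change was 0.10 with A1 (95% interval -0.01 to 0.21, edgeR adjusted p = 0.100), and without control replicate 4 it was 0.14 and passed (edgeR adjusted p = 0.0205). With A1 + OVA it was 0.29 (standard error 0.05, edgeR adjusted p = 4.51e-05). Amotl1 was at 150.3, 150.1, 151 and 160 CPM in control, at 156, 150, 143 and 153 CPM in A1-treated and at 163, 165, 164 and 159 CPM in A1 + OVA-treated samples. Its log2 fold change was -0.02 with A1 (95% interval -0.10 to 0.05, edgeR adjusted p = 0.612) and 0.09 with A1 + OVA (standard error 0.04, edgeR adjusted p = 0.0370). The second call was lost in 15 of 20 alternative settings, with an adjusted p of 0.0184 to 0.102, and the groups overlapped.

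The coactivator genes showed little difference. Yap1 (ENSMUSG00000053110, chr9:7931999-8004596, minus strand) was at 199, 206, 197 and 204 CPM in control, at 205, 189, 203 and 204 CPM in A1-treated and at 191, 196, 192 and 188 CPM in A1 + OVA-treated samples. The A1-treated samples overlapped the control range, and the 4 A1 + OVA-treated samples all lay just below it. As a log2 fold change, the difference was -0.01 with A1 (95% interval -0.08 to 0.07, edgeR adjusted p = 0.841) and -0.07 with A1 + OVA (95% interval -0.15 to 0.00, edgeR adjusted p = 0.0872). With upper-quartile normalization the second value was -0.10 and passed (edgeR adjusted p = 0.0240).

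Wwtr1 (ENSMUSG00000027803, chr3:57455649-57575910, minus strand), which encodes TAZ, was at 149, 161, 151 and 160 CPM in control samples. With A1 it was at 170, 163, 176 and 172 CPM, just above control, and with A1 + OVA at 160, 156, 141 and 140 CPM, which overlapped control and lay below all A1-treated samples. The log2 fold change was 0.13 with A1 (standard error 0.04, edgeR adjusted p = 0.0135), and the call was lost without A1 replicate 3 (0.11, edgeR adjusted p = 0.0567). With A1 + OVA it was -0.06 against control (95% interval -0.15 to 0.04, edgeR adjusted p = 0.285).

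Tead1 (ENSMUSG00000055320, chr7:112679318-112906807, plus strand), a DNA-binding partner of both coactivators, was higher in both treated groups. It was at 184, 214, 205 and 216 CPM in control, at 230, 255, 249.5 and 269 CPM in A1-treated and at 281, 276, 276 and 280 CPM in A1 + OVA-treated samples. The 3 groups did not overlap. The change in log2 terms was 0.29 with A1 (standard error 0.05, edgeR adjusted p = 2.31e-05) and 0.44 with A1 + OVA (standard error 0.05, edgeR adjusted p = 8.30e-08).

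**Figure D3:**
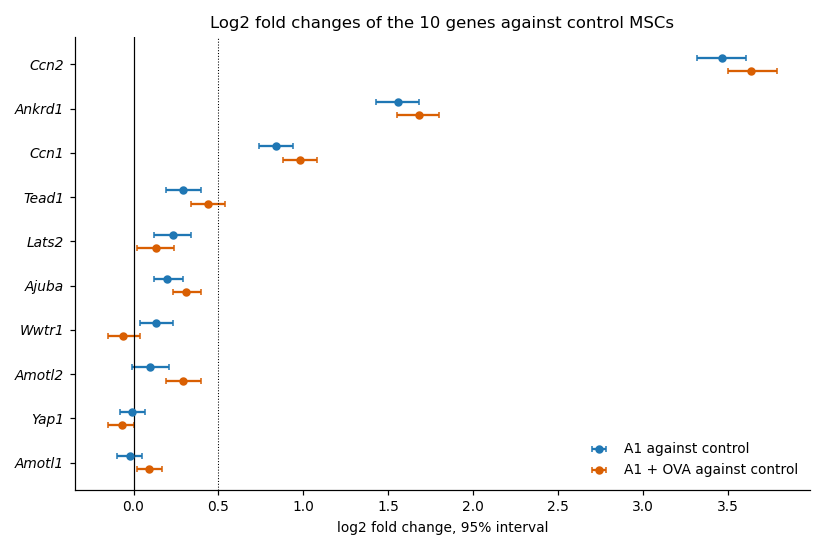
Log2 fold changes of the 10 genes against control MSCs are plotted on the x axis for A1 (blue) and A1 + OVA (orange), with 95% intervals from the edgeR fit; the dotted line marks 0.5. Ccn2, Ankrd1 and Ccn1 lie beyond the line in both comparisons, and the other 7 genes lie below 0.5.

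Against control MSCs, 8 of the 10 genes were higher with A1 + OVA by edgeR, 0 were lower (also at an unadjusted p under 0.05 and by DESeq2) and 2, Yap1 and Wwtr1, did not pass, while 57.6% of tested genes passed in either direction, 29.7% higher and 27.9% lower. The 3 readout genes were again the DEGs, a class that held 8.92% of tested genes as higher. The median log2 fold change of the 10 genes was 0.30, beside 0.004 over all tested genes. Both treated groups were set against the same 4 control samples, so the 2 sets of values are not independent.

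The direct comparison of A1 + OVA with A1 gave small differences among these genes. Of the 10, 3 were higher (Amotl1, Amotl2 and Tead1), 1 was lower (Wwtr1) and 6 did not pass, against 12.9% of tested genes that passed in either direction, 6.05% higher and 6.81% lower. By edgeR 0 of them were DEGs at the cut of 0.5, as by DESeq2, while 1.20% of tested genes were. At an unadjusted p under 0.05, 7 of the 10 were higher and 1 was lower, where 13.9% of tested genes were higher and 13.5% lower. By DESeq2, 2 of the 10 were higher and 1 was lower at an adjusted p under 0.05. For Wwtr1 the log2 difference was -0.19 (standard error 0.05, edgeR adjusted p = 0.00756), which passed in all 20 alternative settings. For Amotl2 it was 0.19 (standard error 0.05, edgeR adjusted p = 0.0152), which was lost in 2 of 20 settings, those without A1 replicate 1 and without A1 + OVA replicate 3. For Tead1 the value was 0.15 (standard error 0.05, edgeR adjusted p = 0.0456) and the call was lost in 10 of 20 settings. Over all 20 settings its adjusted p ran from 0.0164 to 0.189. For Amotl1 it was 0.11 (standard error 0.04, edgeR adjusted p = 0.0448), lost in 14 of 20 settings, with an adjusted p from 0.0299 to 0.162. The readout genes did not pass. Their log2 fold changes were 0.18 for Ccn2 (95% interval 0.05 to 0.30, edgeR adjusted p = 0.0615), 0.14 for Ccn1 (95% interval 0.04 to 0.24, edgeR adjusted p = 0.0608) and 0.12 for Ankrd1 (95% interval 0.00 to 0.24, edgeR adjusted p = 0.163). Ccn1 and Ccn2 each passed in 4 of 20 settings, with an adjusted p of 0.0263 to 0.243 for Ccn1 and of 0.00894 to 0.247 for Ccn2.

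Some samples were at the edge of their group in several genes. In each group some sample has to be lowest and some sample highest for every gene, so the counts are a description. Whether they exceed those of chance was not tested. Control replicate 1 had the lowest level of its group in 5 of the 10 genes, Ccn2, Ankrd1, Lats2, Wwtr1 and Tead1, and control replicate 2 and A1 + OVA replicate 4 in 4 each. A1 replicate 1 had the lowest level of its group in 5 of the 10 genes, Ccn1, Ccn2, Ankrd1, Amotl2 and Tead1, and A1 + OVA replicate 3 had the highest in 5, Ccn1, Ccn2, Ankrd1, Amotl2 and Ajuba. Leaving out A1 replicate 1 or A1 + OVA replicate 3 reduced the genes that passed between A1 + OVA and A1 from 4 to 1.

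The CCN genes did not move together. Of the 4 relatives of Ccn1 and Ccn2 in the table, Ccn3, Ccn4 and Ccn5 were tested and all 3 were DEGs with A1, 1 higher and 2 lower. Of the 11314 tested genes, 1065 were higher DEGs and 1307 were lower DEGs with A1. Ccn4 (WISP1, ENSMUSG00000005124, chr15:66891320-66923201), a WNT-induced matricellular protein, was at 64.9 to 69.4 CPM in control and at 178 to 199 CPM in A1-treated samples, with means of 67.0 ± 1.93 and 189 ± 8.64 CPM (SD, n = 4 each). Its log2 fold change was 1.49 with A1 and 1.56 with A1 + OVA (edgeR adjusted p = 4.96e-17 and 2.84e-17). Ccn3 (NOV, ENSMUSG00000037362, chr15:54745702-54754039), whose product is known to counter CCN2 in matrix production, was at 290, 315, 286 and 281 CPM in control and at 73.0, 71.1, 76.9 and 75.1 CPM in A1-treated samples. With A1 + OVA it was at 94.5, 91.4, 89.7 and 84.7 CPM, between the other groups and apart from both. The log2 fold change of Ccn3 was -1.99 with A1 and -1.70 with A1 + OVA (edgeR adjusted p = 3.79e-19 and 4.87e-18), and 0.28 between A1 + OVA and A1 (edgeR adjusted p = 4.21e-04). Ccn5 (WISP2, ENSMUSG00000027656, chr2:163820861-163833146), which lacks the C-terminal domain of the family, fell from 45.0 ± 4.36 to 19.7 ± 1.14 CPM with A1 and to 21.4 ± 1.43 CPM with A1 + OVA (SD, n = 4 each). Its log2 fold changes were -1.19 and -1.07 (edgeR adjusted p = 4.70e-12 and 1.96e-11). Ccn6 had 0 counts in every sample. Of the relatives of Ankrd1, Ankrd2 had at most 2 counts and Ankrd23 had 2 to 9, and neither was tested.

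**Figure D4:**
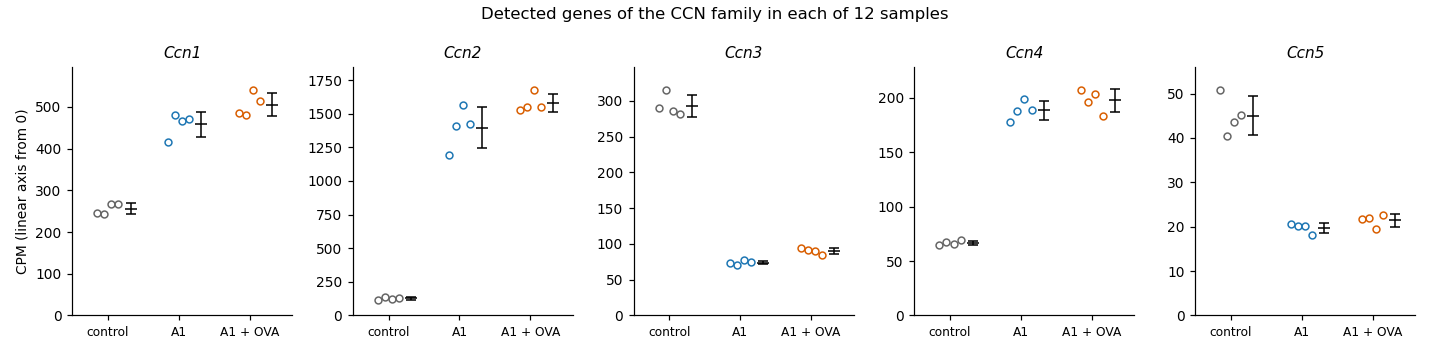
Levels of the 5 detected CCN genes are shown in CPM on linear axes from 0, with circles for the 4 samples of each group and bars for the mean ± SD. Ccn1, Ccn2 and Ccn4 are higher in both treated groups than in control, and Ccn3 and Ccn5 are lower.

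Of 17 further genes of a published YAP and TAZ target signature, 16 were tested. With A1, 8 were higher, 3 lower and 5 did not pass, and their median was 0.30 on the log2 scale beside -0.002 over all tested genes, of which 31.7% were higher and 31.1% lower. DEGs were 4 higher genes and 1 lower gene, beside 9.41% of tested genes that were higher DEGs and 1307 of 11314 that were lower DEGs. The largest increases were those of Dock5, a guanine nucleotide exchange factor for RAC (log2 fold change 0.80, edgeR adjusted p = 1.53e-11), Crim1, a transmembrane protein that binds BMPs (0.79, edgeR adjusted p = 2.69e-11), and the receptor tyrosine kinase Axl (0.68, edgeR adjusted p = 9.04e-13). The decreases were those of Tgfb2, a TGF-β ligand (-0.81, edgeR adjusted p = 2.73e-12), Gadd45a, a stress gene (-0.38, edgeR adjusted p = 8.34e-04), and Arhgef17, a guanine nucleotide exchange factor (-0.14, edgeR adjusted p = 0.0244, lost in 3 of 20 settings). With A1 + OVA, 9 were higher, 3 lower and 4 did not pass, with a median of 0.31 beside 0.004 over all tested genes, of which 29.7% were higher and 27.9% lower. The 3 lower genes were Tgfb2 (-0.23), Arhgef17 (-0.12, lost in 6 of 20 settings) and Rbms3 (-0.24). Igfbp3 had at most 2 counts and was not tested.

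Between A1 + OVA and A1, 3 of these 16 targets were higher, 2 were lower and 11 did not pass. Of all tested genes, 6.05% were higher and 6.81% lower in this comparison. Tgfb2 was at 100.4 to 107 CPM in control, at 56.6 to 61.0 CPM with A1 and at 82.0 to 93.6 CPM with A1 + OVA, so that the 3 groups did not overlap. The log2 fold change of Tgfb2 between the treated groups was 0.58 (standard error 0.05, edgeR adjusted p = 8.74e-08). F3, which encodes tissue factor, the initiator of coagulation, was at 52.1 to 58.1 CPM in control and at 49.4 to 56.8 CPM with A1, and at 77.9 to 83.0 CPM with A1 + OVA. Its log2 fold change was -0.03 with A1 (95% interval -0.13 to 0.08, edgeR adjusted p = 0.662), 0.56 with A1 + OVA (edgeR adjusted p = 2.21e-09) and 0.59 between the treated groups (edgeR adjusted p = 1.17e-07). Crim1 was higher by 0.28 on the log2 scale (edgeR adjusted p = 0.00106), and Asap1 (-0.14) and Rbms3 (-0.28, lost in 2 of 20 settings) were lower. F3, Asap1 and Rbms3 were named after their values had been seen.

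Of 16 Hippo kinases, adaptors and upstream scaffolds, all tested, 7 were higher with A1, 5 were lower and 4 did not pass, and their median log2 fold change was 0.05. Of all tested genes, 62.7% passed in either direction, 31.7% higher and 31.1% lower. Rassf1, a scaffold that binds the MST kinases, had the largest increase (log2 fold change 0.68, edgeR adjusted p = 3.27e-10). Wwc1, the scaffold KIBRA, had 0.53 (edgeR adjusted p = 0.00630) from 61 to 116 counts per sample, and without A1 replicate 1 its value was 0.34 and did not pass (edgeR adjusted p = 0.0560). The FERM domain protein gene Frmd6 had 0.27 (edgeR adjusted p = 3.80e-06). The lower genes were the kinase genes Map4k2 (-0.60), Taok3 (-0.29), Taok1 (-0.28) and Taok2 (-0.22) and Sav1 (-0.28), the adaptor of the MST kinases, of which Taok1 and Taok2 were named after their values had been seen. With A1 + OVA the counts were the same, 7 higher, 5 lower and 4 that did not pass, with a median of 0.04. Of all tested genes, 29.7% were higher and 27.9% lower with A1 + OVA. Between A1 + OVA and A1, 0 of the 16 passed an adjusted p of 0.05 by edgeR, as by DESeq2, while 12.9% of tested genes passed by edgeR. An unadjusted p under 0.05 was found for 3 of the 16 and for 27.4% of tested genes.

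Of 13 DNA-binding partners, cofactors and junctional binders of YAP and TAZ, 11 were tested, and Vgll1 and Vgll2 had 0 counts. Ptpn14 is also counted among the further targets, and it did not pass in any of the comparisons. With A1, 6 were higher, 2 were lower and 3 did not pass, and the median over the 11 was 0.16 on the log2 scale. Over all tested genes 31.7% were higher, 31.1% were lower and the median was -0.002. Tead4, a close relative of Tead1, had a log2 fold change of 0.63 with A1 and 0.87 with A1 + OVA (edgeR adjusted p = 1.11e-04 and 1.13e-06), from 71 to 151 counts per sample. Tead3 had -0.23 with A1 (edgeR adjusted p = 0.0359), a call that was lost in 4 of 20 settings, and -0.02 with A1 + OVA (edgeR adjusted p = 0.842). Wtip, a LIM relative of Ajuba, had 0.37 (edgeR adjusted p = 0.00332). Amot, the founding angiomotin, was lower, with a log2 fold change of -0.38 with A1 and -0.42 with A1 + OVA (edgeR adjusted p = 3.43e-05 and 1.26e-05), while Amotl1 and Amotl2 had the values given above. With A1 + OVA, 6 partners were higher, 1 was lower and 4 did not pass, with a median of 0.14. Over all tested genes 29.7% were higher, 27.9% were lower and the median was 0.004. Between A1 + OVA and A1, 2 partners were lower and 9 did not pass, beside 6.05% of tested genes higher and 6.81% lower. Vgll4, a cofactor that competes with YAP for TEAD factors, was among the lower genes. This gene, named after its values had been seen, was at 47.1 to 50.9 CPM in control, at 54.8 to 58.8 CPM with A1 and at 43.9 to 50.3 CPM with A1 + OVA. Its log2 fold change between the treated groups was -0.30 (standard error 0.05, edgeR adjusted p = 5.09e-04).

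Actin and SRF target genes were set beside the 10 genes because YAP and TAZ respond to the actin cytoskeleton and share some targets with SRF. All 12 were tested, and all 12 were higher with A1 by a median of 0.64 on the log2 scale, and 11 were DEGs, all but Flna (0.48). Of all tested genes, 31.7% were higher and 9.41% were higher DEGs, with a median of -0.002. As with the other lists, these genes were chosen with earlier results of these data known, so their counts only describe the list. The largest increases were those of Cnn1, a calponin (log2 fold change 2.19, edgeR adjusted p = 2.45e-14), Tagln, transgelin (1.69, edgeR adjusted p = 9.88e-18), and Actg2, a smooth muscle actin (1.39, edgeR adjusted p = 4.25e-16). With A1 + OVA all 12 were higher DEGs, with a median of 0.85, beside 8.92% of tested genes that were higher DEGs and a median of 0.004. Between A1 + OVA and A1, 3 were higher, Vcl (0.23), Cnn2 (0.19) and Myl9 (0.15, lost in 5 of 20 settings), and 9 did not pass. Of all tested genes, 6.05% were higher and 6.81% lower between the treated groups. Flna, Vcl, Cnn2 and Myl9 were named after their values had been seen.

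**Figure D5:**
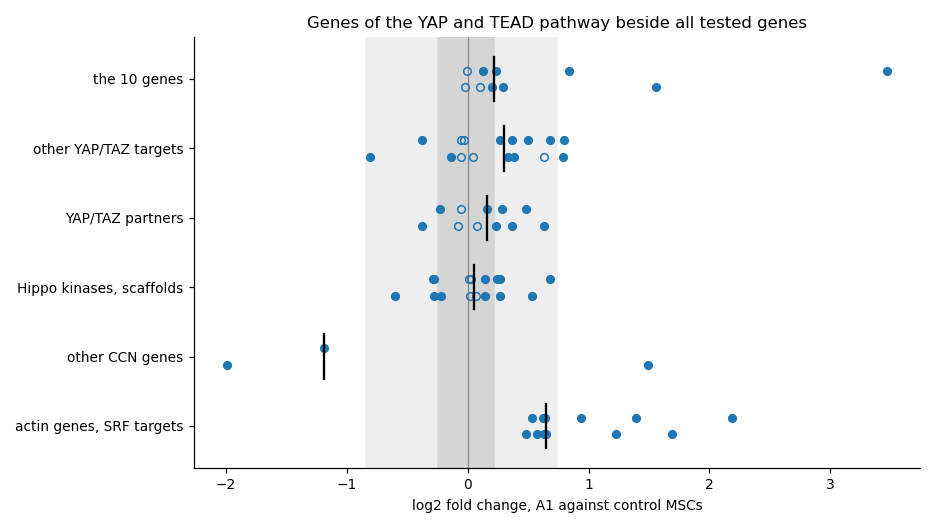
Each point is the log2 fold change of 1 gene between A1-treated and control MSCs, filled where the adjusted p was under 0.05, with a bar for the median of each list. The grey bands run from the 25th to the 75th and from the 5th to the 95th percentile of all tested genes (-0.25 to 0.22 and -0.84 to 0.74). Ccn2, Ankrd1 and Ccn1 lie beyond them, as do the further targets Dock5 and Crim1 and some actin genes, among them Cnn1, Tagln, Actg2 and Myl9. The other CCN genes lie on both sides, and all actin genes lie to the right of 0.

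The genes whose log2 CPM was most like that of the readout genes over the 12 samples were found by Pearson's r, which here mainly follows the gap between treated and control samples and is given as a description. For Ccn2 they included Ccn4 and Rnd1 (r = 0.998 for both). For Ankrd1 they were Ccn2 and Inhba (r = 0.996 for both) and Ets2 (r = 0.995). For Ccn1 they were the integrin gene Itga5 (r = 0.995), the matricellular gene Thbs1 (r = 0.994) and the actin crosslinker gene Actn1 (r = 0.993). All 3 of these were higher with A1, with log2 fold changes of 1.31, 1.13 and 0.73.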

How the data were processed

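PolyA-selected, strand-specific libraries of 12 MSC samples were sequenced. Per the labels and the study's methods, the authors aligned reads with STAR 2.7 to GRCm38 after bcl2fastq 2.20 and counted them per gene with featureCounts 2.0, strand-specifically. The authors deposited raw counts for 55487 genes in 12 columns, without a filter, and these counts were used as deposited (13702348 to 16881995 per sample, which sets the precision of each value).

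Symbols, biotypes and exon lengths came from GENCODE M21 for 99.53% of gene IDs, and protein-coding genes held 97.7% to 98.5% of counts. Genes passing edgeR's filterByExpr (11314 genes) were scaled by TMM and fitted in 1 quasi-likelihood model of 3 groups without covariates (edgeR 4.0.16, R 4.3.3), with Benjamini-Hochberg adjustment over all 11314. Standard errors and 95% intervals come from the same fit. A gene was called at an adjusted p under 0.05 and was a DEG where its log2 fold change was also at least 0.5 in size. CPM values use TMM library sizes, and log2 CPM a prior count of 2. The scripts were tested on simulated data. No term for batch was used, since the labels give none.

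The 10 genes and all gene lists were chosen with earlier results of these data known. The text names, from each list, up to 3 of the largest increases and 3 of the largest decreases with A1, and, for each readout gene, the 3 genes with the highest correlation. Genes outside this rule are marked in the text. For 2 genes that the rule names, values are not reported here. Promoters were RefSeq windows (GRCm38.p6). Samples with the same replicate number did not deviate together (mean correlation 0.021, -0.132 to 0.156 over 12 pairs), so no pairing was used. The 20 alternatives were other scalings, DESeq2 1.42.0 (the authors' tool), other filters, all genes, 2 groups only, a replicate block and leaving out each sample.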

Additional observations from a re-analysis of the deposited data

Results flagged for a closer look

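In each group of 4 samples, the highest and the lowest sample were compared with the rest by Dixon's ratio at its 95% critical value for the 10 genes and the other genes named, 150 groups over 50 genes. A sample stood apart in 8 of the 150, and chance flags about 1 in 20 groups. Among the 10 genes these were Ccn2 in A1 + OVA replicate 3 (1676 CPM, the others 1529 to 1552), Amotl1 in control replicate 4 (160 CPM, the others 150.1 to 151) and Yap1 in A1 replicate 2 (189 CPM, the others 203 to 205). Without the first of these samples, 1 of the 10 genes passed between A1 + OVA and A1, in place of 4.

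Among the other named genes, a sample stood apart for Axl in A1 replicate 4 (663 CPM, the others 622 to 628) and for Inhba in A1 replicate 1 (349 CPM, the others 415 to 424). The same held for Vcl in control replicate 1 (398 CPM, the others 446 to 454), Myl9 in A1 replicate 2 (508 CPM, the others 533 to 535) and Taok1 in A1 + OVA replicate 3 (155 CPM, the others 163 to 164).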

How the results depend on the processing

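Over 121 single-gene results and 20 alternatives, 2318 of 2420 values kept their direction and their side of the threshold, 83 lost a call, 11 gained one and 8 changed sign. No call changed sign. The values that changed sign came from leaving out 1 sample and did not pass: Yap1 with A1 (-0.03 to 0.019 over these samples), F3 with A1 (-0.07 to 0.008), Rbms3 with A1 (-0.025 to 0.09) and Tead3 with A1 + OVA (-0.07 to 0.032). The number of the 10 genes called stayed at 6 to 8 with A1 and with A1 + OVA, and Ccn2, Ankrd1 and Ccn1 were the 3 DEGs in every alternative. Between A1 + OVA and A1, 4 genes were called, but 2 with DESeq2 size factors, 2 with all genes of the table and 1 to 5 when 1 sample was left out. Leaving out A1 replicate 2, A1 + OVA replicate 4 or control replicate 3 gave 2, and leaving out A1 replicate 1 or A1 + OVA replicate 3 gave 1. Wwtr1 was called in all of these, and the cause of the other losses was not tested. With a replicate block 5 genes were called between A1 + OVA and A1, with Ccn1 (0.14, adjusted p = 0.0263) and Ccn2 (0.18, adjusted p = 0.0190) gained and Amotl1 (adjusted p = 0.0544) lost by edgeR. The block gave 7 called genes of the 10 with A1 and 8 with A1 + OVA, and over all genes 7134, 6580 and 1488 in place of 7098, 6518 and 1455. Another scaling moved the median log2 fold change of all genes to -0.031 at most. Amotl1, Lats2 and Tead1 had calls between log2 values of 0.09 and 0.15 that were lost in 10 to 15 of 20 alternatives.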
